A study of Mus musculus with 8 samples.

Results

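The FOS, JUN and EGR immediate early genes were described in sorted mouse neural progenitors (neural tube, embryonic day 14), in 4 libraries labelled 53BP1KO and 4 labelled Ctrl. The members were the 10 genes Fos, Fosb, Fosl1, Fosl2, Jun, Junb, Jund, Egr1, Egr2 and Ier2, taken by symbol, and all 10 were found among the 32499 genes of the count table. Of these, 9 had enough reads to be tested, and Fosl1 did not. The 53BP1KO embryos came from matings of Trp53bp1tm1Jc females with males that carried CRISPR in-frame deletions of 53bp1, and their 53bp1 locus was sequenced to find deletion/KO embryos; the Ctrl embryos were wild type. The labelled strain of both groups was C57BL/6. Neural tubes of both groups were dissociated with collagenase type 2, and the cells were sorted with the dye NeuroFluor CDr3. The labels' protocols mention cells used directly and cells cultured in differentiation medium, and do not say which entered a library.

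Immediate early genes are transcribed within minutes of a stimulus, with no need for new protein. FOS proteins (Fos, Fosb, Fosl1, Fosl2) pair with JUN proteins (Jun, Junb, Jund) through leucine zippers to form the transcription factor AP-1. EGR proteins bind GC-rich sites with zinc fingers. Serum response factor with its ERK-activated partners, and CREB at cyclic AMP response elements, are known inducers of several of these genes. Enzymatic dissociation of tissue is itself a known stimulus, so their transcripts in sorted cells are often read as a sign of handling.

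Total counts were between 11081419 and 24339621 in the 53BP1KO libraries and between 15343046 and 18189045 in the control libraries. Trp53bp1, the targeted gene, had 19.2 to 33.8 CPM (reads of the gene scaled to a common library size, which was adjusted by TMM, the trimmed mean of M-values) in the 53BP1KO libraries and 26.4 to 27.2 CPM in the control libraries. In-frame deletions need not lower the count of a gene, and what the Trp53bp1tm1Jc allele does to the count was not examined. This level therefore does not check the labels, and groups are named here by their labels. Xist, the RNA of the inactive X chromosome, had 9 to 16 counts in the 53BP1KO libraries and 23853 to 26134 counts in the control libraries, and the Y-linked gene Ddx3y had 579 to 1064 counts in the 53BP1KO libraries and 0 counts in every control library. Sex and genotype label therefore cannot be told apart in any difference given here. The labels do not say that the libraries came from separate embryos, so each p-value weighs a difference against the spread of these libraries alone, and that spread may be technical. In such bulk samples fewer cells of a type and less RNA per cell cannot be told apart. Where 30.0% of all genes tested were called (edgeR adjusted p under 0.05), 5 of 10 progenitor markers rose and 3 fell, or 80%. Of these, Sox2 averaged 166 ± 22.7 CPM in the 53BP1KO libraries and 97.0 ± 7.68 CPM in the control libraries (SD, n = 4 each), while Nes averaged 114 ± 16.8 CPM in the 53BP1KO libraries and 213 ± 37.2 CPM in the control libraries. Fabp7, the target of the dye, averaged 7790 ± 1270 CPM in the 53BP1KO libraries and 7590 ± 1010 CPM in the control libraries. Microglial markers summed to 1.38 to 5.75 CPM in the 53BP1KO libraries and to 2.69 to 7.82 CPM in the control libraries, with all 9 markers detected in at least 1 library, and the erythroid markers Hba-a1 and Hba-a2 were at 0 counts in all 8.

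One library, Ctrl 4, was the lowest control for every member, and the members' results and the count of each gene list are given with and without it. It was singled out after its values were seen. A Dixon check for outliers (gap to the next library over the range of the group) on the members' CPM flagged 0 of 20 sets of member and group. Its total of 15580941 counts was within the range of the other libraries. The 8 mesenchymal markers summed to 81.8 CPM in Ctrl 4 and to 40.0 to 46.4 CPM in Ctrl 1 to Ctrl 3. In the 53BP1KO libraries they summed to 19.7 to 20.6 CPM. In Ctrl 4 the largest was Col3a1 (54 CPM, against 19.5 to 25.1 in Ctrl 1 to Ctrl 3). Foxc1 was lower there (3.88 CPM, against 9.93 to 11.9). Twist1 went against the sums of the groups, with 2.02 ± 0.25 CPM in the 53BP1KO libraries and 0.345 ± 0.192 CPM in the control libraries. Col3a1, Foxc1 and Twist1 were named after their values were seen. The 8 astrocyte markers summed to 1040 to 1190 CPM in the 53BP1KO libraries, against 287 to 417 CPM in the control libraries. Ctrl 4 had the lowest of these sums, through Agt (14.9 CPM, against 70.7 to 89.5 in Ctrl 1 to Ctrl 3) and Slc1a2 (145 CPM, against 221 to 248), while only these 2 of the 8 were below the other controls and the median difference of the list was 0.05 on the log2 scale. The part of these values in the results was not tested.

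The promoters of Fosb, Fos, Fosl2 and Junb are shown because these 4 had the lowest level in Ctrl 4, relative to the other controls, among the 9 members tested. Sequences are from RefSeq, build GRCm38.p6, with 250 bases before and 50 bases from the transcript start, printed 5′ to 3′ on the gene's strand. Both strands were searched. Capitals mark matches to the core of the cyclic AMP response element (CGTCA, which reads TGACG when it lies on the other strand), to the EGR motif GCGGGGGCG or to the TATA box TATAAA. The windows are chr7:19309996-19310295 (minus strand), chr12:85473640-85473939 (plus), chr5:32136222-32136521 (plus) and chr8:84978699-84978998 (minus).
Fosb: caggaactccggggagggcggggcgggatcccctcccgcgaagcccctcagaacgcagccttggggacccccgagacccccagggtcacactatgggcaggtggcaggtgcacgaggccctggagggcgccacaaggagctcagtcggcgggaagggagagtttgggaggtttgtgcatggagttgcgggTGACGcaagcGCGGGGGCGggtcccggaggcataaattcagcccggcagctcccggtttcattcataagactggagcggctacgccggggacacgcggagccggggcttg
Fos: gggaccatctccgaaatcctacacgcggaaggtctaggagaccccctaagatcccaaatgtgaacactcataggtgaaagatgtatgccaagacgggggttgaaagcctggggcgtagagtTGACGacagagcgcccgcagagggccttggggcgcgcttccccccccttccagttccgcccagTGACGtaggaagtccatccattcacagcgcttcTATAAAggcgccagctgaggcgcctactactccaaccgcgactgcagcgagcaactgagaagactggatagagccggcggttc
Fosl2: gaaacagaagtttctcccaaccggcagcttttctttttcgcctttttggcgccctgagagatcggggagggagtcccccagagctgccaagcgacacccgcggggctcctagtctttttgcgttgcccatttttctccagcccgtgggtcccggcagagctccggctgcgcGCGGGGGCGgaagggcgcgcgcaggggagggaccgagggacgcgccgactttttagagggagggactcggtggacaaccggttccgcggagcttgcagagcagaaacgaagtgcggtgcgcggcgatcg
Junb: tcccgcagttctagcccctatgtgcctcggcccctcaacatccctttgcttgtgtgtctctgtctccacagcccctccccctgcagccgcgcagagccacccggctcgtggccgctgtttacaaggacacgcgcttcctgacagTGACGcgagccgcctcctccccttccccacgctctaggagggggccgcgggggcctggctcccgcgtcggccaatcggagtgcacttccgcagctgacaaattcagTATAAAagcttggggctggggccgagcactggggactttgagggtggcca

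The core element lay at -129 to -125 and at -66 to -62 from the start of Fos, at -60 to -56 in Fosb and at -106 to -102 in Junb, and was not in the Fosl2 window. Of all 32851 promoter windows of 300 bases, 20.8% held this core element on either strand. The motif GCGGGGGCG was in the windows of Fosb (-50 to -42) and Fosl2 (-79 to -71), against 2.91% of all windows. The TATA box matched at -33 to -28 in Fos and from base 1 to base 6 after the start in Junb, against 13.6% of windows. Windows were found for 7 of the 10 members; Egr1, Ier2 and Fosl1 had none. None of the windows of these 7 members held the full element TGACGTCA, the AP-1 motif TGACTCA or its reverse complement TGAGTCA, or GCGTGGGCG, which were in 1.79%, 5.20%, 5.20% and 0.612% of all windows. A CArG box, the core of the serum response element, was in 4 of the 5 overlapping or neighbouring windows of Egr2 and in no window of the other 6 members, against 1.63% of all windows. These matches are descriptions of letters, not of binding. Letters more than 250 bases before the start were not searched, so no match in a window does not mean that the gene lacks the element.

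Of the 9 members tested, 2 rose in the 53BP1KO libraries, Ier2 and Egr1, and none fell (edgeR's quasi-likelihood test, Benjamini-Hochberg adjusted over 15021 genes, threshold 0.05). Over all genes tested 30.0% were called, 16.1% higher and 13.9% lower, so 2 of 9 is near the background. At an unadjusted p under 0.05 the counts were 6 higher and 0 lower, beside 21.1% higher and 19.4% lower over all genes. DESeq2 called 3 higher and 0 lower, beside 16.0% and 15.5% of all genes, and limma voom called 3 higher and 0 lower, beside 20.8% and 19.8%. The median log2 fold change of the 9 members was 0.41, beside 0.00 for all genes tested. This median was 0.23 without Ctrl 4, 0.27 without 53BP1KO 4 and 0.28 with voom. Of the 9 members 1, Ier2, had every 53BP1KO library above every control library; over all genes tested 15.9% had this order, and 29.9% had groups apart in either direction.

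**Figure D1:**
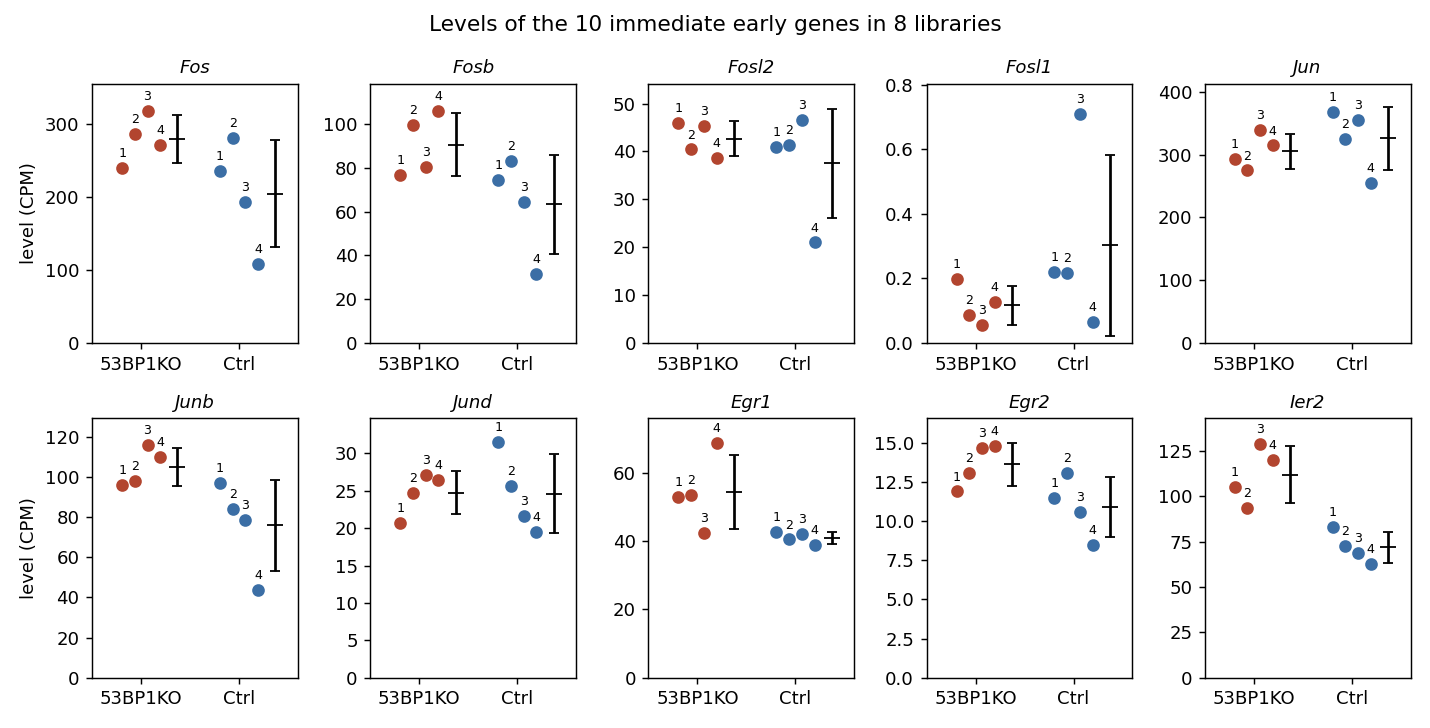
Level in CPM (vertical axis, from 0) of each member in the 4 53BP1KO libraries (red) and the 4 control libraries (blue), with the library number over each point and the mean and SD of the group as a black mark with bars. The 4 53BP1KO libraries lie above all control libraries for Ier2, and Ctrl 4 is the lowest point of its group for all 10 members.

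Per length, Fos, Jun and Ier2 were the most abundant members. Scaled to the kilobases of all annotated exons (GENCODE M21), Fos averaged 119 ± 14.0 CPM per kb in the 53BP1KO libraries and 87.1 ± 31.2 in the control libraries, and Jun averaged 96.0 ± 8.76 CPM per kb in the 53BP1KO libraries and 102 ± 16.0 in the control libraries (SD, n = 4 each). Ier2 followed with 73.6 ± 10.3 CPM per kb in the 53BP1KO libraries and 47.2 ± 5.69 in the control libraries, then Junb with 45.5 ± 4.05 in the 53BP1KO libraries and 33.0 ± 9.91 in the control libraries. The next 3, Jund, Fosb and Egr1, lay between 12.1 and 14.8 CPM per kb in the 53BP1KO libraries and between 9.15 and 14.7 in the control libraries, and in the 53BP1KO libraries they did not differ beyond their SDs. Fosl2 (4.40 ± 0.375) and Egr2 (4.00 ± 0.408) were alike within their SDs in the 53BP1KO libraries, and so were they in the control libraries (3.87 ± 1.16 and 3.22 ± 0.566). Fosl1 was close to absent, with 4, 1, 1 and 3 counts in 53BP1KO 1 to 4 and 4, 4, 11 and 1 counts in Ctrl 1 to 4; 3 counts are worth 0.126 to 0.261 CPM, and no fold is given for it.

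Ier2, a short nuclear protein gene induced by growth factors, had the largest difference among the members tested. It had 105, 93.5, 129 and 120 CPM in 53BP1KO 1 to 4, against 83.3, 72.4, 68.9 and 62.7 CPM in Ctrl 1 to 4. Every 53BP1KO library lay above every control library. This came to 0.64 ± 0.12 (log2 fold change ± SE; edgeR adjusted p = 0.00079), with a 95% interval of 0.39 to 0.89. Without Ctrl 4 it was 0.57 (SE 0.11, adjusted p = 0.000963), and the call was kept in each of the 8 fits that left out 1 library, with values between 0.57 and 0.72.

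Egr1, a zinc finger factor induced through serum response elements, also rose, with a smaller margin. It had 53.0, 53.6, 42.4 and 68.8 CPM in 53BP1KO 1 to 4, against 42.8, 40.5, 42.0 and 38.8 CPM in Ctrl 1 to 4. The 4 control libraries lay close together, and 53BP1KO 3 lay within their range while 53BP1KO 4 was the highest of all. The difference was 0.41 ± 0.13 (log2 fold change ± SE; edgeR adjusted p = 0.0238), with a 95% interval of 0.14 to 0.68. It was 0.27 (adjusted p = 0.113) without 53BP1KO 4, and the call was also lost without Ctrl 2 (0.40, adjusted p = 0.0649) and without Ctrl 3 (0.42, adjusted p = 0.0556). Without Ctrl 4 it was 0.37 (adjusted p = 0.0399). Egr2, known for its part in hindbrain segmentation and in myelinating Schwann cells, had 11.9, 13.1, 14.7 and 14.8 CPM in 53BP1KO 1 to 4, against 11.5, 13.1, 10.6 and 8.47 CPM in Ctrl 1 to 4, and the groups overlapped (0.31, SE 0.14, adjusted p = 0.112, or 0.20 without Ctrl 4).

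Fos, the founding member of the FOS family, did not pass the test. It had 240, 287, 319 and 272 CPM in 53BP1KO 1 to 4, against 236, 281, 194 and 108 CPM in Ctrl 1 to 4. Ctrl 1 and Ctrl 2 lay near or within the range of the 53BP1KO libraries, and Ctrl 4 lay far below all others. The log2 fold change was 0.45 (SE 0.21, adjusted p = 0.12 by edgeR), and 0.23 (SE 0.12, 95% interval -0.03 to 0.48, adjusted p = 0.172) without Ctrl 4. It passed without Ctrl 2 (0.63, adjusted p = 0.0379). Fosb, known for a truncated splice form that builds up in neurons, followed the same order in the controls, with 76.7, 99.6, 80.3 and 106 CPM in 53BP1KO 1 to 4, against 74.4, 83.0, 64.3 and 31.6 CPM in Ctrl 1 to 4. Its log2 fold change was 0.52 (SE 0.22, adjusted p = 0.0892), or 0.28 (adjusted p = 0.0924) without Ctrl 4, and it passed without Ctrl 2 (0.66, adjusted p = 0.0486).

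Fosl2, also known as Fra-2, had 46.0, 40.4, 45.4 and 38.6 CPM in 53BP1KO 1 to 4, against 40.9, 41.4, 46.6 and 21.0 CPM in Ctrl 1 to 4. Apart from Ctrl 4 the groups overlapped nearly throughout. The log2 fold change was 0.18 (SE 0.18, adjusted p = 0.485 by edgeR), and -0.02 (95% interval -0.24 to 0.19) without Ctrl 4.

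Of the JUN genes, Junb showed the control pattern of Fos and Fosb, while Jun and Jund showed less of it. Junb, which can restrain Jun at AP-1 sites, had 96.0, 98.0, 116 and 110 CPM in 53BP1KO 1 to 4, against 97.2, 84.0, 78.7 and 43.8 CPM in Ctrl 1 to 4. Ctrl 1 lay between the 53BP1KO libraries and the other 3 controls lay below them. The log2 fold change was 0.46 (SE 0.18, adjusted p = 0.0624 by edgeR), or 0.26 (adjusted p = 0.0576) without Ctrl 4, and it passed without Ctrl 1 (0.60, adjusted p = 0.0261), with DESeq2 (adjusted p = 0.0444) and with limma voom (adjusted p = 0.0223). Junb overlaps Prdx2 on the other strand, and the strand setting of the counting is not given in the sources used here; Prdx2 averaged 126 ± 18.1 CPM in the 53BP1KO libraries and 131 ± 11.2 CPM in the control libraries.

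Jun, the AP-1 subunit that JNK kinases phosphorylate, had 294, 275, 340 and 315 CPM in 53BP1KO 1 to 4, against 369, 325, 355 and 255 CPM in Ctrl 1 to 4. The groups overlapped, and 3 of the 4 controls lay at or above the upper part of the 53BP1KO range. The difference was -0.09 ± 0.11 (log2 fold change ± SE; edgeR adjusted p = 0.594; 95% interval -0.34 to 0.15), or -0.20 (adjusted p = 0.115) without Ctrl 4. Jund, the JUN member that is usually expressed without a stimulus, had 20.7, 24.7, 27.1 and 26.4 CPM in 53BP1KO 1 to 4, against 31.5, 25.7, 21.6 and 19.5 CPM in Ctrl 1 to 4. The difference was 0.01 ± 0.14 (adjusted p = 0.982; 95% interval -0.30 to 0.32), with a sign that turned to -0.01 under RLE scaling and to -0.03 under upper quartile scaling, and to -0.10 (adjusted p = 0.607) without Ctrl 4. Jund overlaps the antisense gene Gm11175, which had between 1 and 15 counts per library, and Jun overlaps the antisense gene Junos, not analysed here.

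**Figure D2:**
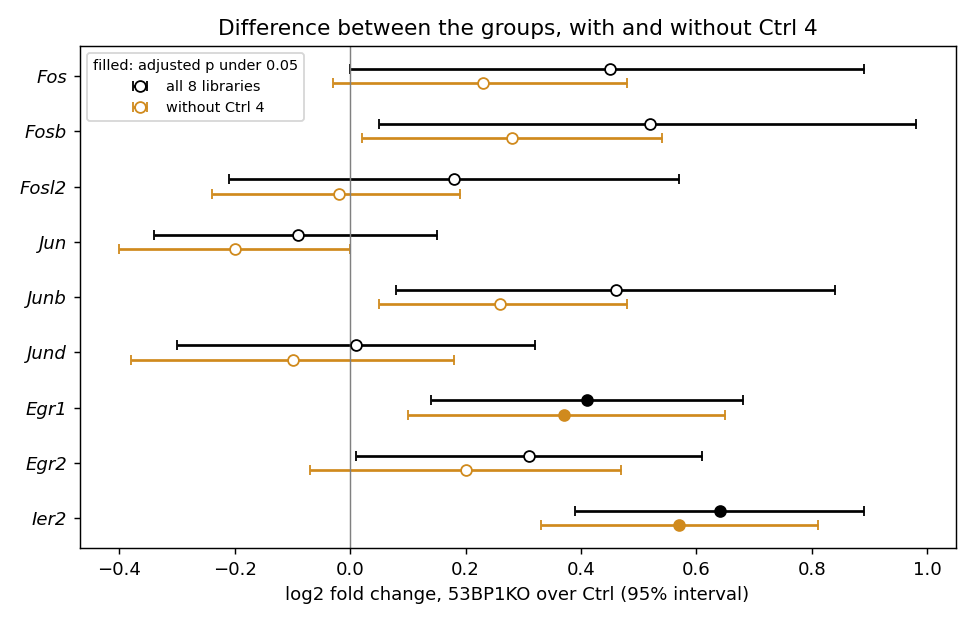
Log2 fold change of 53BP1KO over Ctrl with its 95% interval (horizontal axis) for the 9 members tested, with all 8 libraries (black) and without Ctrl 4 (orange); filled points have an adjusted p under 0.05. Ier2 and Egr1 are filled in both fits, and the values of Fos, Fosb and Junb move to 0.23, 0.28 and 0.26 without Ctrl 4.

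The spread between libraries differed among the members. On the log2 CPM scale, the SD of Fos was 0.17 among the 53BP1KO libraries and 0.60 among the control libraries, and that of Fosb was 0.23 among the 53BP1KO libraries and 0.63 among the control libraries. Ranked among all genes tested in the same group, these SDs stood at the 45.9th and 63.7th percentile in the 53BP1KO libraries, and at the 92.1st and 93.2nd percentile in the control libraries. Fosl2 (0.12 in 53BP1KO, 0.52 in control libraries) and Junb (0.13 in 53BP1KO, 0.50 in control libraries) were alike in this. Without Ctrl 4 the control SDs were 0.27 for Fos, 0.18 for Fosb, 0.10 for Fosl2 and 0.16 for Junb, beside a median over all genes tested of 0.15, which was 0.18 in the 53BP1KO libraries and 0.20 in all 4 control libraries. Egr1 had the opposite pattern, with an SD of 0.28 in the 53BP1KO libraries (74.6th percentile) and 0.06 in the control libraries (5.93rd percentile). The SDs of Ier2, Jun, Jund and Egr2 lay between 0.13 and 0.21 in the 53BP1KO libraries and between 0.17 and 0.30 in the control libraries. No test of these differences in spread is given.

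Ctrl 4 was lower than the mean of the other 3 controls in all 9 members tested, but to unequal degrees. Its log2 difference was -1.22 for Fosb, -1.11 for Fos, -1.02 for Fosl2 and -0.98 for Junb. It was -0.46 for Jun, -0.46 for Egr2, -0.41 for Jund, -0.25 for Ier2 and -0.11 for Egr1. Over all genes tested the median of this difference was 0.02, with 5% of genes below -0.79 and 3.10% below -1, so the first 4 lay in the lowest part of the range and Egr1 did not.

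**Figure D3:**
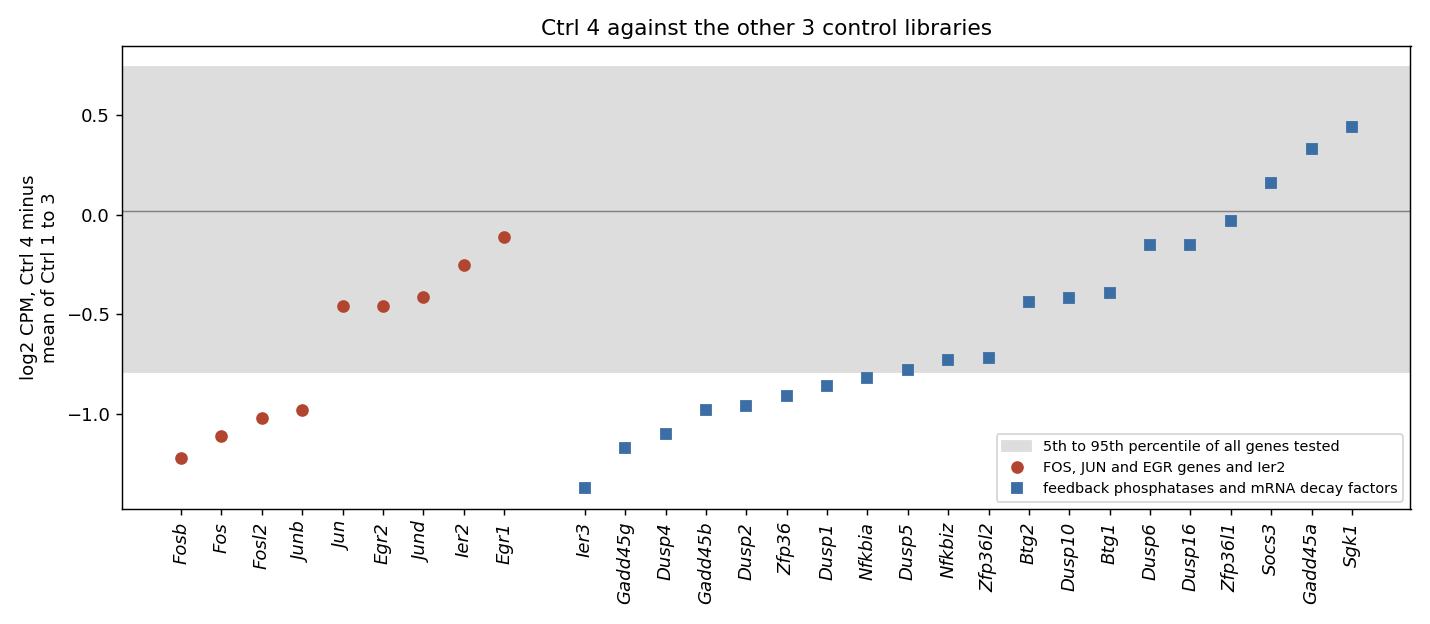
Difference in log2 CPM between Ctrl 4 and the mean of Ctrl 1 to Ctrl 3 (vertical axis). Red circles are the 9 members tested. Blue squares are the 20 genes of the list of feedback phosphatases and mRNA decay factors. The grey band is the 5th to 95th percentile of all genes tested, and the line is their median. Fosb, Fos, Fosl2 and Junb lie below the grey band, and 17 of the 20 genes of that list lie below 0.

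The ratio of Fos to Fosb counts was 3.13, 2.88, 3.98 and 2.56 in 53BP1KO 1 to 4, against 3.17, 3.38, 3.03 and 3.43 in Ctrl 1 to 4. The ratio of Fos to Junb was 2.50, 2.92, 2.76 and 2.48 in 53BP1KO 1 to 4, against 2.43, 3.34, 2.47 and 2.47 in Ctrl 1 to 4. Both ratios overlapped between the groups, and in neither did Ctrl 4 stand apart. Ctrl 4 was the highest of all libraries in the ratio of Ier2 to Fos (0.579, against 0.257 to 0.443 in the rest). The same held for the ratio of Egr1 to Fos (0.358, against 0.133 to 0.253). The ratio of Fos to Jun was 0.816, 1.04, 0.939 and 0.862 in 53BP1KO 1 to 4, against 0.639, 0.864, 0.547 and 0.425 in Ctrl 1 to 4. Of the controls, Ctrl 2 alone lay within the 53BP1KO range of the Fos to Jun ratio, and the other 3 lay below it; these ratios were chosen after the counts were seen and are given with no test.

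By the root mean square difference of log2 CPM over the 8 libraries, each gene centred on its own mean, Junb (0.15) and Fosb (0.18) were the members nearest to Fos, at rank 4 and rank 12 of 10847 genes with at least 5 CPM in the higher group. Egr2 (0.24) ranked 85, Fosl2 (0.26) 143, Ier2 (0.33) 545, Jund (0.36) 1012, Jun (0.41) 2172 and Egr1 (0.43) 2662. The genes nearest to Fos were Fuom, a fucose mutarotase (0.129), Pgm2, a phosphoglucomutase (0.14), and Usmg5, a small subunit of ATP synthase (0.151), where the median over genes was 0.50. Nearest to Jun were Ndufaf6 (0.035), Zfp248 (0.062) and Rtca (0.064), where the median over genes was 0.27. Nearest to Egr1 were Prob1 (0.059), Tbkbp1 (0.069) and the receptor gene Notch1 (0.076), where the median was 0.32. Notch1 had 433, 438, 340 and 545 CPM in 53BP1KO 1 to 4, against 314, 288, 319 and 322 CPM in Ctrl 1 to 4, the same order of the 53BP1KO libraries at the top and bottom as in Egr1.

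Among 16 other immediate early genes, of which 15 were tested, 3 rose and 2 fell (median log2 fold change -0.18, against 0.00 over all genes). So 33.3% were called, beside 30.0% of all genes tested. The same 5 were called without Ctrl 4. Atf3, a stress-induced factor that can pair with JUN proteins, averaged 64.7 ± 12.6 CPM in the 53BP1KO libraries and 8.57 ± 1.41 CPM in the control libraries (2.92, SE 0.16, adjusted p = 8.25e-09 by edgeR). Klf4 rose by 2.27 (SE 0.12) and the orphan nuclear receptor gene Nr4a1 by 0.49 (SE 0.11). Arc, the synaptic immediate early gene, was lower, with 4.38, 3.40, 6.31 and 4.07 CPM in 53BP1KO 1 to 4, against 13.8, 12.4, 10.7 and 8.66 CPM in Ctrl 1 to 4 (-1.32, SE 0.19, adjusted p = 0.000151). Myc was the other that fell (-0.43, SE 0.10, adjusted p = 0.00629), a call lost with no filter on low counts, and was named after its values were seen. In Ctrl 4 the median difference of the 15 tested genes from the other controls was -0.30, with 11 of the 15 below. Egr4, a relative of Egr1, had 14.0, 11.4, 14.9 and 14.3 CPM in 53BP1KO 1 to 4, against 14.3, 15.1, 13 and 4.91 CPM in Ctrl 1 to 4, so Ctrl 4 lay far below the rest. Nr4a3 went the other way, with 8.47 CPM in Ctrl 4, against 3.40 to 5.55 CPM in Ctrl 1 to Ctrl 3. Egr4 and Nr4a3 were chosen after their values were seen. Npas4, the remaining gene, was too low to test.

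Of 16 AP-1 and EGR partners and repressors, 14 were tested, 3 rose and 2 fell (median -0.02). Without Ctrl 4, 4 rose and 3 fell, beside 15.9% and 14.3% of all genes. With all libraries 35.7% were called, beside 30.0% of all genes tested. Jdp2, a repressor that dimerises with JUN proteins, averaged 15.1 ± 1.78 CPM in the 53BP1KO libraries and 4.69 ± 1.10 CPM in the control libraries (SD, n = 4 each) (1.69, SE 0.16, adjusted p = 3.68e-06 by edgeR). Batf3, another JUN partner, rose at a low level (2.10 to 3.66 CPM in the 53BP1KO libraries, 0.439 to 1.10 CPM in the control libraries). Atf7 also rose (0.37, SE 0.11, adjusted p = 0.02), and its call was lost without 53BP1KO 1, 53BP1KO 2 or Ctrl 1. Nab1, a co-repressor that binds EGR proteins, averaged 85.3 ± 4.42 CPM in the 53BP1KO libraries and 137 ± 11.6 CPM in the control libraries (-0.68, SE 0.09, adjusted p = 5.16e-05), and Creb5 fell too (-0.82, SE 0.13, adjusted p = 0.000327). Nab2, the relative of Nab1 and itself a known target of Egr1 protein, had a log2 fold change of 0.20 (adjusted p = 0.202), and 0.28 (adjusted p = 0.0474) without Ctrl 4; Batf3 and Nab2 were named after their values were seen.

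Few of the kinases upstream passed the test. Of 21 genes of the ERK, JNK and p38 cascades 1 rose, Nras (0.23, SE 0.08, adjusted p = 0.0406 by edgeR), and 0 fell (median -0.02); unadjusted, 1 was higher and 4 were lower, DESeq2 called 1 higher and 2 lower, and voom 1 higher and 3 lower. With edgeR 4.76% of the 21 were called, beside 30.0% of all genes tested. The shares of all genes under the other tests are those given with the members. Without Ctrl 4, 0 rose and 1 fell, beside 15.9% and 14.3% of all genes. The gene that fell was Rps6ka1 (-0.98, SE 0.21, adjusted p = 0.00184 by edgeR), named after its values were seen. The Nras call was lost under RLE scaling (adjusted p = 0.0567), under upper quartile scaling (0.0651) and in 7 of the 8 fits without 1 library, with values between 0.20 and 0.26 in those 8. Of 12 genes of serum response factor, its partners and its targets 4 fell and 0 rose (median -0.31). So 33.3% were called, beside 30.0% of all genes tested, of which 13.9% were called lower and 16.1% higher. Unadjusted, with DESeq2 and with voom, 5 were lower and 0 higher. The number that fell was 2 without 53BP1KO 4, Ctrl 1 or Ctrl 3, and 5 without Ctrl 4. Over all genes, 1497 of 15493 fell without 53BP1KO 4, 2009 of 15447 without Ctrl 1 and 1686 of 15400 without Ctrl 3. Without Ctrl 4 it was 14.3% of all genes. Srf itself had a log2 fold change of 0.08 (adjusted p = 0.599), and Cyr61, a matricellular target, averaged 84.5 ± 4.91 CPM in the 53BP1KO libraries and 142 ± 3.00 CPM in the control libraries (-0.75, SE 0.08, adjusted p = 9.11e-06). Tagln, a smooth muscle gene, had 0.784 to 2.14 CPM in the 53BP1KO libraries and 3.34, 2.50, 4.00 and 13.6 CPM in Ctrl 1 to 4 (-1.97, adjusted p = 0.00712, or -1.16 without Ctrl 4). Elk3 fell as well (-0.31, SE 0.10, adjusted p = 0.0267), a call lost without 53BP1KO 2, 53BP1KO 4, Ctrl 1 or Ctrl 3 and with no filter on low counts. The last that fell was Ctgf, also a matricellular target, with 0.523 to 1.35 CPM in the 53BP1KO libraries and 2.69, 1.95, 3.22 and 0.647 CPM in Ctrl 1 to 4 (-1.34, adjusted p = 0.0327). Its call was lost in 6 of the 8 fits without 1 library, all but those without 53BP1KO 3 or Ctrl 4, with values between -1.66 and -1.09; Srf and Ctgf were named after their values were seen.

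The list of feedback phosphatases and mRNA decay factors also had low values in Ctrl 4. It further held Ier3, Gadd45a, Gadd45b, Gadd45g, Socs3, Nfkbia, Nfkbiz and Sgk1, which are neither. Ctrl 4 was below the mean of the other 3 controls in 17 of 20 (median -0.72, against 0.02 over all genes), with Ier3 at -1.37, Dusp4 at -1.10 and Zfp36 at -0.91. Dusp4, a nuclear phosphatase of MAP kinases, had 39.4, 39.5, 37 and 33.2 CPM in 53BP1KO 1 to 4, against 61.7, 59.6, 62.6 and 28.6 CPM in Ctrl 1 to 4. With all libraries 5 of the 20 rose and 2 fell (median 0.00), so 35% were called, beside 30.0% of all genes tested. Without Ctrl 4 the counts were 5 and 7, where 15.9% of all genes rose and 14.3% fell. Those that fell with all libraries were Dusp10 (-0.84, SE 0.11) and Dusp16 (-0.41, SE 0.11), and without Ctrl 4 the phosphatase genes Dusp1, Dusp2 and Dusp4, and Gadd45g and Nfkbia, were lower as well. Those that rose were Gadd45a (4.23 to 5.17 CPM in the 53BP1KO libraries, 1.36 to 2.00 CPM in the control libraries), Zfp36l1 (0.44, SE 0.08), Socs3, a feedback inhibitor of cytokine receptors (0.98, SE 0.17, adjusted p = 0.000585 by edgeR), Btg1 (0.45, SE 0.11, adjusted p = 0.00628) and Ier3 (0.66, SE 0.24, adjusted p = 0.0488). Ier3 lost its call under RLE scaling (adjusted p = 0.0524), upper quartile scaling (0.0633), robust dispersion (0.0792), the stricter filter (0.0549), voom (0.0557) and in 6 of the 8 fits without 1 library, and its value without Ctrl 4 was 0.41. Dusp4, Zfp36, Dusp16, Gadd45a, Zfp36l1 and the genes lower without Ctrl 4 were chosen after their values were seen.

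Heat shock genes, which dissociation can also induce, held no gene called higher. Of 13 tested 0 rose and 3 fell (median -0.18), so 23.1% were called, beside 30.0% of all genes. The counts were 0 higher and 4 lower unadjusted, 0 and 3 with DESeq2, 0 and 4 with voom, and 0 and 4 without Ctrl 4. Over all genes, 19.4% were lower unadjusted, 15.5% with DESeq2, 19.8% with voom and 14.3% without Ctrl 4. The chaperone genes Hspa8 (-0.72, SE 0.12), Hsp90aa1 (-0.49, SE 0.09) and Hspd1 (-0.39, SE 0.08) were those that fell. The strongly inducible Hspa1a had 0.545 to 0.871 CPM in the 53BP1KO libraries and 0.322 to 1.53 CPM in the control libraries, and was chosen after its values were seen. In Ctrl 4 the median difference of these 13 genes from the other controls was -0.05.

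Genes known as AP-1 targets in other cells moved both ways. Of 10 tested of 16, 3 rose and 4 fell (median -0.42), so 70% were called, beside 30.0% of all genes tested. Without Ctrl 4, 3 rose and 6 fell, with Spp1 and Timp1 added, beside 15.9% and 14.3% of all genes. Voom also called 6 lower, beside 19.8% of all genes. Vegfa, the vascular growth factor, averaged 67.2 ± 2.09 CPM in the 53BP1KO libraries and 9.54 ± 2.31 CPM in the control libraries (2.81, SE 0.15, adjusted p = 6.8e-09 by edgeR), and Hmox1, haem oxygenase, rose by 1.61 (SE 0.12). The third that rose was Tnc (0.71), and Cd44 (-0.46) and Vim (-0.39) fell. The call of Cd44 was lost without 53BP1KO 3, 53BP1KO 4, Ctrl 1, Ctrl 2 or Ctrl 3; Tnc, Cd44, Vim, Spp1 and Timp1 were named after their values were seen. The protease gene Plau averaged 3.73 ± 0.621 CPM in the 53BP1KO libraries and 12.1 ± 2.67 CPM in the control libraries (-1.72, SE 0.19), and the cyclin gene Ccnd1 averaged 406 ± 42.8 CPM in the 53BP1KO libraries and 886 ± 160 CPM in the control libraries (-1.13, SE 0.13). Many of these genes have other known regulators, and a count of RNA does not measure AP-1 activity.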

How the data were processed

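RNA was sequenced from 8 libraries (4 labelled 53BP1KO, 4 labelled Ctrl) made with a stranded total RNA kit, per the labels' protocols. What the authors deposited is a table of raw counts, in whole reads for each gene, per the file headers; CASAVA, HTSeq 0.6.1p1 and the builds mm9 and NCBIM37 are named in the submitters' processing notes. The sources used here name no aligner and no strand setting. Genes kept by filterByExpr (15021 of 32499) were scaled by TMM and tested with edgeR 4.0.16 (quasi-likelihood, Benjamini-Hochberg over all genes tested) in R 4.3.3; the SE is the log2 fold change divided by the square root of F. Log2 CPM used a prior count of 2. DESeq2 1.42.0 and limma 3.58.1 (voom) were alternatives, with other scalings, filters, a replicate block and each library left out. The gene-wise fit was checked on simulated data. A planned limma test of the difference in spread made too many false calls on simulated data and is not reported. No pair of libraries in a group was alike within sampling noise (chi-square per degree of freedom 4.45 to 36.2). Genes were named by a rule: all members, Trp53bp1, Kdm6a, Xist and Ddx3y, up to 4 past the threshold per list with at least 5 CPM, or the 2 most abundant, and the 3 nearest to Fos, Jun and Egr1; exceptions are stated. The members and lists were chosen with earlier results of these data known. Exon lengths are from GENCODE M21 and promoters from RefSeq, both on GRCm38, and no coordinate was joined to the counts. Counting intervals and floors cover counting error only.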

Additional observations from a re-analysis of the deposited data

How the results depend on the processing

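The number of members that rose was 2 with edgeR and TMM. It was 5 with no filter on low counts and 5 with the replicate block, 3 with DESeq2 and voom, 2 under RLE and upper quartile scaling, the stricter filter and robust dispersion, and between 1 and 3 when 1 library was left out; the number that fell was 0 in each of these. Over all genes, 2879 of 30508 were called higher with no filter, and 2237 of 15021 with the replicate block. With 1 library left out, the number ran from 1753 of 15493 (without 53BP1KO 4) to 2432 of 15310 (without Ctrl 4). With the replicate block the added calls were Fos (0.52, adjusted p = 0.0369), Fosb (0.58, adjusted p = 0.0494) and Junb (0.51, adjusted p = 0.0326). The labels give both groups the numbers 1 to 4 with no shared source. The correlations of same-numbered libraries' deviations were 0.25, 0.28, -0.16 and 0.01. They were -0.31 for 53BP1KO 1 with Ctrl 2 and -0.32 for 53BP1KO 2 with Ctrl 1. These values do not settle whether the numbers pair any of the libraries, which was not tested. Of 144 values of the 9 members under the alternatives, 3 lost a call, 11 gained one and 0 called values changed sign. Among values not called, 11 changed sign or rounded to 0, all of them of Jund or Fosl2. The number of genes called over the table was 4499, and 3250 to 4625 with 1 library left out. Scaling alternatives moved the median of all genes by at most 0.038 in size (upper quartile, -0.038). With no filter on low counts the median moved by 0.066, and 62.1% of the genes called were higher, against 53.6% in the main fit. The cause of these shifts was not tested. The alternatives planned for the test of spread were not run. Depth limited Fosl1.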
